A study of Mus musculus with 24 samples.

Results

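The genes described are 7 subunits of the GABA-A receptor, Gabra2, Gabra3, Gabra4, Gabra5, Gabrb1, Gabrb2 and Gabrg1, found by their symbols among 30270 genes in the deposited tables. They were chosen on measured values of these same libraries, with results known, and the values that chose them are not recorded. Their differences between groups are therefore given as descriptions, with no p-value. The mRNA came from bilateral punches of the nucleus accumbens (NAc) and the ventral tegmental area (VTA) of wild-type (WT) and Vdr-/- mice, which lack the vitamin D receptor, on a C57BL/6 strain background. Mice received an intraperitoneal injection of PBS or of morphine sulfate at 5 mg/kg. Each of the 8 combinations of region, genotype and injection had 3 libraries, 24 in all. The labels number the libraries, and these numbers are called mouse numbers here, which the labels do not state. Punches were described as taken 90 min after injection, whereas a methods passage gives 60 min for saline controls. Substrain, sex and age are not given in the labels. Only the Vdr-/- mice were described as fed extra calcium and lactose, so diet and genotype cannot be told apart. No wild-type library was stated to come from a littermate, so strain background and genotype cannot be told apart either.

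GABA-A receptors are chloride channels opened by the inhibitory transmitter GABA. Each channel is a ring of 5 subunits, most often of α, β and γ type, and the α subunit sets much of the receptor's location and pharmacology. In the NAc the receptor acts on medium spiny neurons, the GABA-releasing output cells. In the VTA it restrains dopamine neurons, and opioids are known to act there in part on GABA neurons. Of the 7 genes, Gabra2 to Gabra5 encode the α2 to α5 subunits, Gabrb1 and Gabrb2 encode β1 and β2, and Gabrg1 encodes γ1.

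Gabra2, Gabra4, Gabrb1 and Gabrg1 lie together on mouse chromosome 5 (GRCm38). In GENCODE M21 the cluster runs from Gabrg1 (chr5:70751047-70842617, minus strand) through Gabra2 (chr5:70957597-71095849, minus) and Gabra4 (chr5:71569749-71658308, minus) to Gabrb1 (chr5:71658113-72149037, plus). Gabra4 and Gabrb1 overlap by 196 bases on opposite strands. Outside the cluster, Gabra3 lies on chromosome X (72432681 to 72656848, minus), Gabra5 on chromosome 7 (57407672 to 57510059, minus) and Gabrb2 on chromosome 11 (42419757 to 42629028, plus). The annotated span of Gabra5 also overlaps a gene on the other strand. The library kit keeps strand, but which strand was counted is not given in the sources used here, so reads in these overlaps may be split between the genes.

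The 250 bases before the RefSeq start of Gabra2 and of its nearest cluster neighbour Gabrg1 are shown because these genes share a strand and a cluster and are compared throughout. Letters are 5′ to 3′ on the minus strand of GRCm38.p6, and capitals mark CpG dinucleotides. The Gabra2 window is chr5:71095850-71096099 and the Gabrg1 window is chr5:70842618-70842867. Neither overlaps an annotated exon.
Gabra2: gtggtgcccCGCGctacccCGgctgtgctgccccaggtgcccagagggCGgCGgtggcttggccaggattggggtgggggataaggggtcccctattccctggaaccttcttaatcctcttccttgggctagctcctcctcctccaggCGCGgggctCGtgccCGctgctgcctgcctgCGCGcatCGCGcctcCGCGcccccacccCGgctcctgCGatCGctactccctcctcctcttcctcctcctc
Gabrg1: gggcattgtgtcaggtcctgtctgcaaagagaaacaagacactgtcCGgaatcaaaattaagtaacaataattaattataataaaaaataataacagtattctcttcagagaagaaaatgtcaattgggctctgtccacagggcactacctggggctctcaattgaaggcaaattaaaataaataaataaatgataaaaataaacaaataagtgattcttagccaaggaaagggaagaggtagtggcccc
The Gabra2 window holds 18 CpG and is 70% G or C, whereas the Gabrg1 window holds 1 CpG and is 35.6% G or C. The median of 32817 such windows over all RefSeq genes was 6 CpG and 52.4% G or C. Neither window held, on either strand, a direct repeat with NNN between any pair of the vitamin D hexamers searched, the form bound by the vitamin D receptor, and 0.0396% of all windows held one. The hexamers searched were AGGTCA, the second form AGTTCA, the further form GGGTCA, and lastly the form GGTTCA. Neither held a single such hexamer, which 38.6% of windows did. The windows of the other 2 cluster genes overlap exons and are not shown. That of Gabra4 holds 12 CpG and is 61.2% G or C. Those at the annotated starts of Gabrb1 hold 18 CpG (64.4% G or C) and 6 CpG (50.8%), and the first of them holds 1 single hexamer and no repeat. The low CpG count among the cluster's windows is thus that of Gabrg1.

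Each library held between 9328726 and 30184426 reads assigned to genes. Each member had at least 311 reads in every library, and all 7 passed the filter on low values in every comparison. Vdr, the deleted gene, had 1.46 to 14.7 normalized counts in WT and 0 to 10.3 in Vdr-/- NAc libraries, ranges that overlap, as those of the VTA did. Genotypes are therefore those given by the labels. The summed level of 10 medium spiny neuron markers was 2577 to 5126 CPM (reads scaled to the library total) in NAc and 267 to 361 CPM in VTA libraries, and that of 10 dopamine neuron markers was 57.6 to 98.4 and 220 to 2899 CPM. One NAc library, WT PBS mouse 2, stood apart. Across 12714 genes, which are not independent replicates, its log ratio to the other NAc libraries fell with exon length (Spearman's rho -0.435). The same rho also differed between the injections. In the NAc it was 0.018 to 0.207 in the 6 morphine libraries and -0.125 to 0.046 in the other 5 PBS libraries, and in the VTA it was 0.062 to 0.182 in the 6 morphine and -0.236 to -0.044 in the 6 PBS libraries, which do not overlap. The part of this length trend in the morphine differences below was not tested. Levels, differences and likenesses of Gabrb2 and Gabrb1 that rest on WT PBS mouse 2 are given with and without it. All values below named normalized counts are reads divided by a size factor set over the 24 libraries.

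Length-scaled levels are given as TPM, each library scaled to the same sum after division by exon length. Averaged over the 12 libraries of a region, Gabra3 was highest among the 7 in both regions, but not within every group. In the VTA after PBS, Gabrb2 averaged 134.3 TPM in WT and 108.9 in Vdr-/- mice, above Gabra3 at 117.5 and 105.3. In the NAc of Vdr-/- mice after PBS, Gabra2 averaged 101.8 TPM and Gabra3 101.3. In the NAc, over 12 libraries, Gabra3 averaged 113.6 TPM ± 20.0 (SD), Gabrb2 94.2 ± 27.3, Gabra2 84.3 ± 27.4, Gabra4 81.0 ± 9.60 and Gabrb1 74.6 ± 15.6. Gabra5 followed at 57.8 TPM ± 7.91 and Gabrg1 at 22.7 ± 6.16. In that order, only the steps from Gabrb1 to Gabra5 and from Gabra5 to Gabrg1 were larger than the SD of both genes. Without WT PBS mouse 2, a choice made after the data were seen, Gabrb2 averaged 101.4 TPM ± 11.9 and Gabrb1 77.7 ± 11.7 (n = 11), and the order and these steps were as before. In the VTA, Gabra3 averaged 123.5 TPM ± 19.0, Gabrb2 114.3 ± 19.6, Gabrb1 73.5 ± 15.4, Gabra5 54.1 ± 14.8, Gabra2 52.0 ± 21.9, Gabra4 28.1 ± 12.7 and Gabrg1 26.1 ± 6.51. There the steps below Gabrb2, below Gabrb1 and below Gabra2 exceeded both SDs. These SDs span genotype and injection. In bulk tissue, fewer cells of a type and less RNA per cell cannot be told apart.

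**Figure D1:**
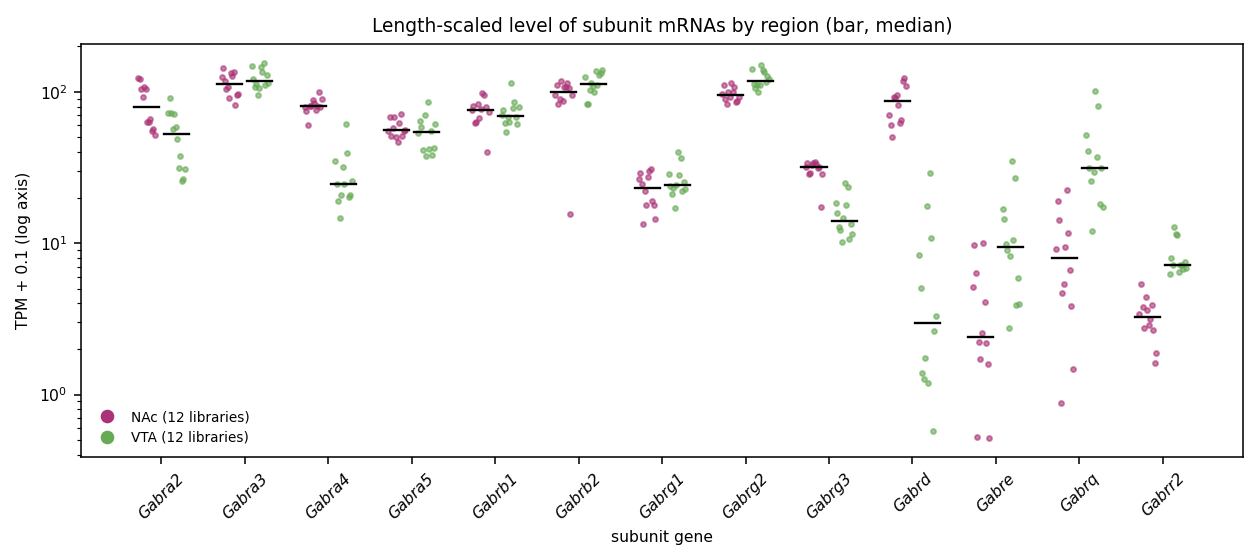
Points give TPM plus 0.1 of 13 subunit mRNAs (log axis) in each of 12 NAc and 12 VTA libraries, and bars give medians. Gabra4 and Gabrd sit higher in the NAc, Gabre and Gabrq higher in the VTA, and 1 NAc library sits far below the others for Gabrb2.

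The regions were compared directly in 1 fit over all libraries (NAc minus VTA, averaged over genotype and injection). Gabra4, whose α4 subunit forms extrasynaptic receptors with δ, held 1797 to 2591 normalized counts in the 12 NAc libraries (median 2141) and 412 to 1567 in the 12 VTA libraries (median 617). The regions did not overlap for Gabra4, and the log2 difference was 1.60 ± 0.13 (SE). Gabra2 was higher in the NAc by 0.72 ± 0.06 on the log2 scale, while its ranges over libraries, which mix genotypes, overlapped. Gabrg1 was lower in the NAc (log2 difference -0.24 ± 0.07), as was Gabra3 (-0.15 ± 0.05). These 4 of 7 members passed an adjusted p of 0.05 (limma with Benjamini-Hochberg adjustment), as did 73% of 16147 genes tested. Gabrb2 (-0.41 ± 0.20), Gabra5 (0.10 ± 0.12) and Gabrb1 (-0.01 ± 0.09) did not. Without WT PBS mouse 2 the difference of Gabrb2 was -0.19 ± 0.06 and passed. It also passed without WT PBS mouse 1 (-0.53) and without WT PBS mouse 3 (-0.51).

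Gabra2 mRNA stood at 1.94 to 2.44 times the WT level in Vdr-/- mice, and the genotypes overlapped in none of the 4 settings of region and injection. In this difference the loss of Vdr, the diet and the strain background cannot be told apart. In the NAc after PBS, the WT libraries held 1796, 1971 and 1749 normalized counts and the Vdr-/- libraries 3312, 3630 and 3647. The log2 difference was 0.95 ± 0.07 (SE, 1.94-fold). In the NAc after morphine, WT libraries held 1998, 1983 and 2071 and Vdr-/- libraries 3945, 3828 and 3945, again a log2 difference of 0.95 ± 0.05 (1.94-fold). Every Vdr-/- library of the NAc, after either injection, lay above every WT library.

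In the VTA the levels of Gabra2 were lower and the log2 differences were 1.29 and 1.19. After PBS the WT libraries held 868, 865 and 975 normalized counts and the Vdr-/- libraries 2007, 2592 and 2064 (log2 difference 1.29 ± 0.10, 2.44-fold). After morphine the values were 1458, 1006 and 1269 in WT and 2307, 3350 and 2838 in Vdr-/- mice (1.19 ± 0.16, 2.28-fold). The libraries given morphine spread more widely within each VTA group than those given PBS, and still did not overlap. The VTA libraries of Vdr-/- mice, at 2007 to 3350 counts, lay within or above the WT range of the NAc, 1749 to 2071 counts.

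Gabra2 was the 1 member of 7 that passed the threshold by genotype in the NAc after PBS, where 0.069% of 15933 genes tested passed. The same held in the NAc after morphine (1 of 7, background 0.192% of 15638 genes) and in the VTA after PBS (1 of 7, 0.39% of 16425). In the VTA after morphine 0 of 7 passed (limma; background 0.0624% of 16029 genes), while 2 of 7, Gabra2 and Gabrg1, had an unadjusted p under 0.05. DESeq2 on the recovered reads passed 1 of 7 there, Gabra2, and edgeR 0. Since the members were chosen with these values known, nothing is read from these counts. The NAc PBS call of Gabra2 was lost without WT PBS mouse 3 (log2 difference 0.92) and without Vdr-/- PBS mouse 7 (1.00), 8 (0.93) or 9 (0.93). The VTA morphine difference passed without WT morphine mouse 1.0 (1.31) and without Vdr-/- morphine mouse 2.0 (1.33).

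Dopamine neuron markers also differed between the genotypes' VTA libraries. Their summed level was 2334 to 2899 CPM in WT and 538 to 2215 CPM in Vdr-/- mice after PBS, and 220 to 572 CPM in WT and 614 to 1188 CPM in Vdr-/- mice after morphine. The marker sums of Vdr-/- mice thus lay below those of WT mice after PBS and above them after morphine. None of the 10 markers passed the test by genotype after either injection (limma). In the NAc the medium spiny neuron sum was 3902 to 4524 CPM in Vdr-/- and 4477 to 5126 CPM in WT mice after PBS, and 2577 to 2956 and 2923 to 3764 CPM after morphine. The NAc sum of 8 oligodendrocyte markers did not overlap between the genotypes. It was 4237 to 4453 CPM in Vdr-/- and 4688 to 6176 CPM in WT mice after PBS, and 3866 to 4086 and 4109 to 5021 CPM after morphine. All 8 markers had differences below 0 after both injections, with medians of -0.28 and -0.18 (log2), and 0 of 8 passed (limma). Other sums separated after PBS alone. The endothelial sum was 146 to 151 CPM in Vdr-/- and 175 to 192 CPM in WT NAc libraries, and 222 to 239 and 252 to 262 CPM in the VTA. The NAc microglia sum was 327 to 348 CPM in Vdr-/- and 349 to 395 CPM in WT mice. After morphine the endothelial and microglia sums overlapped. The part of tissue composition in the Gabra2 values was not tested.

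**Figure D2:**
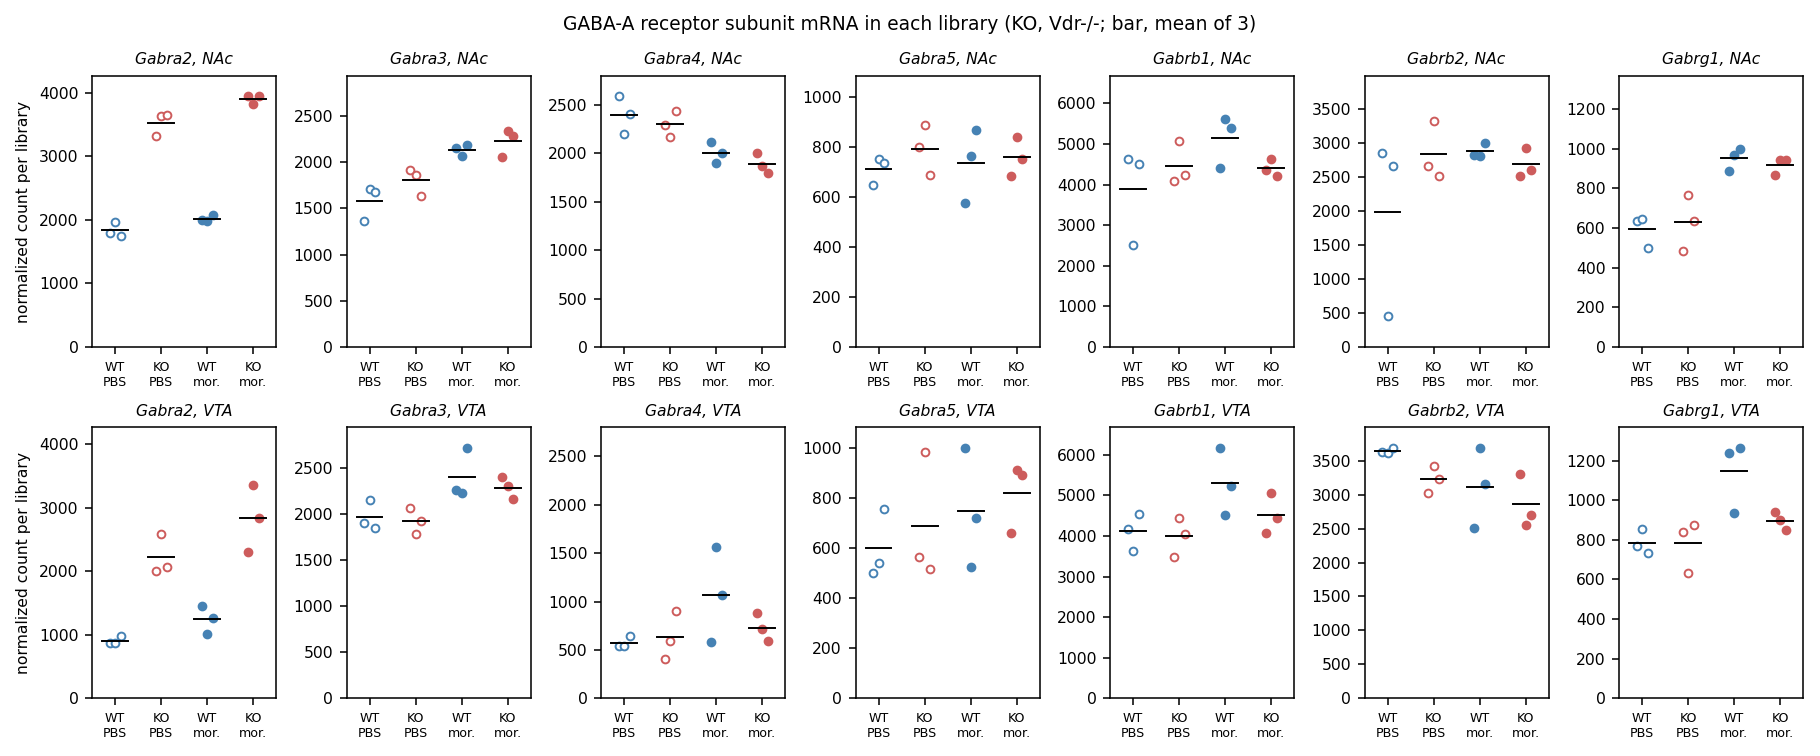
Points give normalized counts of each member in each library, in the NAc (top) and the VTA (bottom), with bars for the mean of 3. Open points are PBS, filled points morphine, blue WT and red Vdr-/- (KO). Gabra2 is the panel in which red and blue separate after both injections in both regions, and WT PBS mouse 2 is the low NAc point of Gabrb2 and Gabrb1.

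Set against its neighbours on chromosome 5, Gabra2 stood about 1 log2 unit higher in Vdr-/- mice. The log2 level of Gabra2 minus the mean of Gabrb1, Gabra4 and Gabrg1 was 0.08 ± 0.26 (SD, n = 3) in WT and 0.93 ± 0.08 in Vdr-/- NAc libraries after PBS. After morphine these NAc values were -0.08 ± 0.06 and 0.99 ± 0.06. In the VTA they were -0.44 ± 0.03 and 0.84 ± 0.33 after PBS, and -0.56 ± 0.36 and 0.97 ± 0.30 after morphine. The genotypes did not overlap in any of the 4 settings. The Vdr-/- minus WT differences were 0.86 and 1.07 in the NAc and 1.28 and 1.53 in the VTA, after PBS and morphine. Without WT PBS mouse 2, whose low Gabrb1 raised its ratio to 0.37, the NAc PBS difference was 1.00.

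The differences of the 3 neighbours themselves were nearer 0. Gabra4 differed between Vdr-/- and WT mice by -0.05 ± 0.09 and -0.09 ± 0.06 (log2, SE) in the NAc after PBS and morphine, and by 0.08 ± 0.24 and -0.46 ± 0.33 in the VTA. Gabrb1 differed by 0.26 ± 0.24 and -0.22 ± 0.08 in the NAc and by -0.04 ± 0.11 and -0.22 ± 0.12 in the VTA. Gabrg1 differed by 0.08 ± 0.18 and -0.05 ± 0.06 in the NAc and by -0.02 ± 0.12 and -0.34 ± 0.12 in the VTA. None of these passed the threshold, and the genotypes overlapped in all 12 cases. Single libraries moved 2 of them across it. The NAc morphine difference of Gabrb1 was -0.33 and passed without WT morphine mouse 1.0. The VTA morphine difference of Gabrg1 was -0.48 and passed without WT morphine mouse 1.1.

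**Figure D3:**
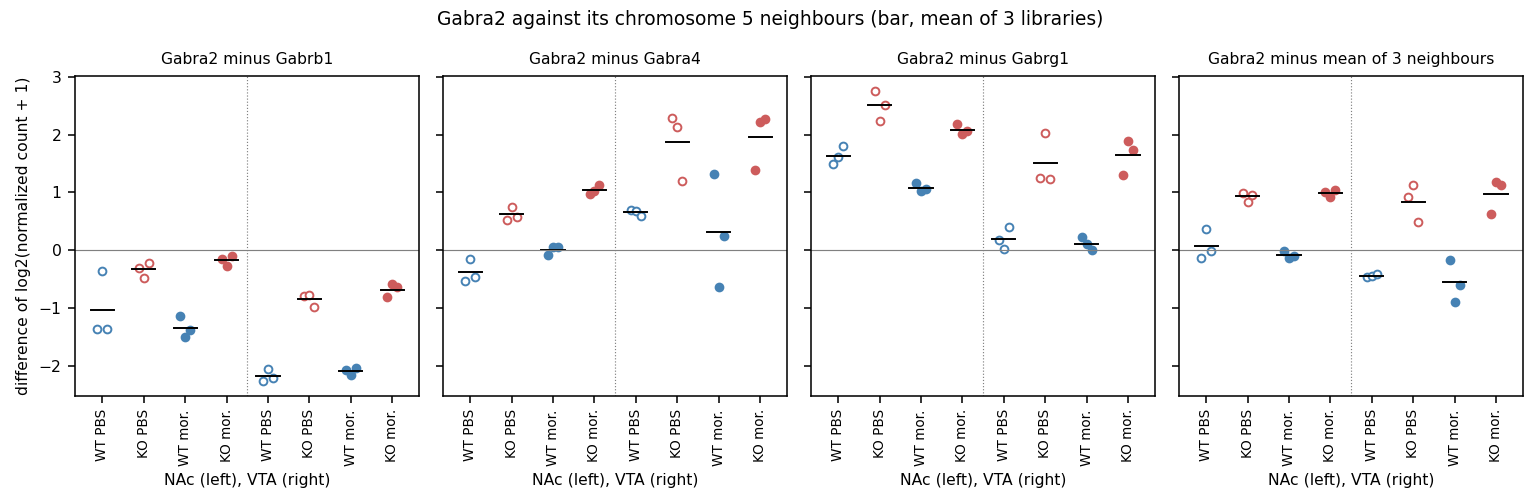
Points give, per library, the log2 level of Gabra2 minus that of each neighbour and minus their mean, with bars for the mean of 3 libraries. Open points are PBS, filled points morphine, blue WT and red Vdr-/- (KO). Against the mean of the 3 neighbours every Vdr-/- library lies above every WT library of its region.

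The window reaching 1000 kb beyond the cluster on each side (chr5:69751047-73149037) holds 28 genes of the tables, 13 of which were tested in all 4 genotype comparisons. Gabra2 was the 1 gene of the window that passed in the NAc after PBS, in the NAc after morphine and in the VTA after PBS. No gene passed in the VTA after morphine (limma), where 4 of 13 had an unadjusted p under 0.05. Gabra2 was chosen with these values known, so nothing is read from its being the 1 gene that passed. The other 12 genes tested in the NAc had median log2 differences of 0.10 after PBS and -0.02 after morphine. In the VTA the median of the other genes was -0.03 over 15 genes after PBS and -0.01 over 12 genes after morphine. The gene farthest above 0 in the VTA after morphine was not Gabra2 but Slc10a4, a vesicle protein gene of monoamine and cholinergic neurons, at 2.04 ± 0.58. Slc10a4 did not pass there with all libraries, passed without WT morphine mouse 1.1 (2.73), and had a difference of the opposite sign after PBS (-1.28 ± 0.56).

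**Figure D4:**
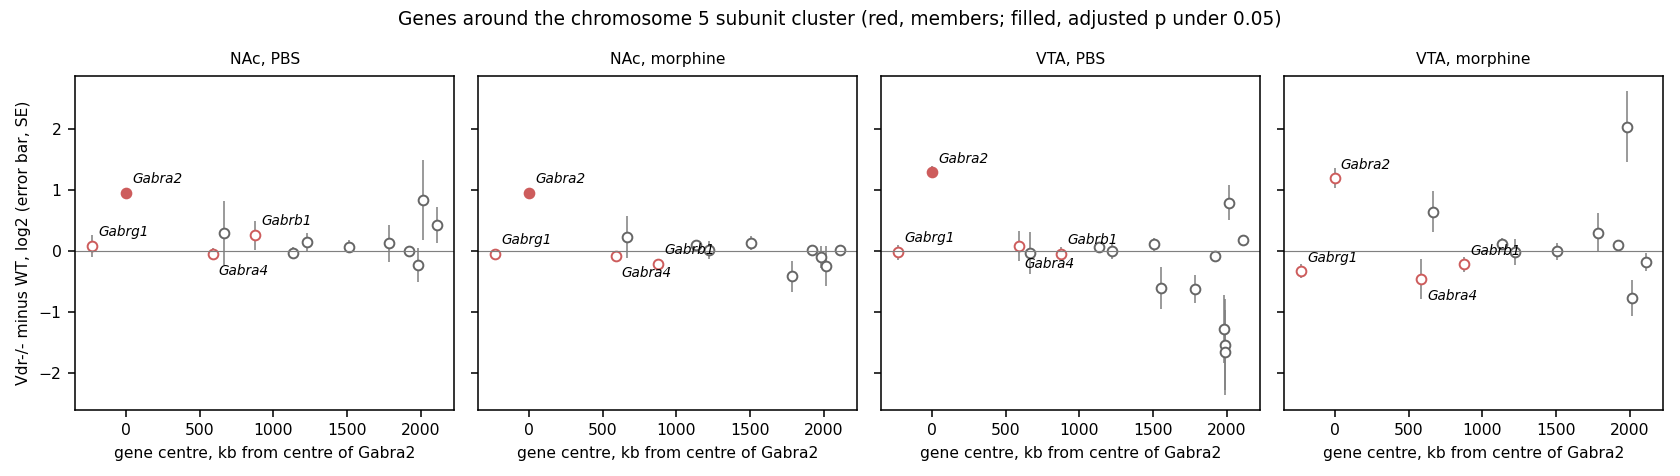
Points give the log2 difference of Vdr-/- minus WT (bar, SE) for each tested gene of the window against the distance of its centre from that of Gabra2 in kb. Members are red, and filled points passed an adjusted p of 0.05. Gabra2 stands at 0.95 to 1.29 while the other 3 members lie between -0.46 and 0.26.

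Of the members outside the cluster, none passed by genotype. Gabra3, the α3 gene, differed by 0.20 ± 0.11 and 0.06 ± 0.06 (log2, SE) in the NAc and by -0.04 ± 0.08 and -0.06 ± 0.08 in the VTA after PBS and morphine. Gabra5, whose α5 subunit is largely extrasynaptic, differed by 0.16 ± 0.11, 0.06 ± 0.13, 0.16 ± 0.25 and 0.17 ± 0.23 in the same order. The genotypes overlapped in each of these cases.

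Gabrb2, the β2 gene, had the largest difference of these members, and it came from 1 library. WT libraries of the NAc after PBS held 2848, 453 and 2659 normalized counts of Gabrb2, and Vdr-/- libraries 2659, 3328 and 2521. The value of 453 belongs to WT PBS mouse 2, and the other WT values lay within the Vdr-/- range. The log2 difference was 0.91 ± 0.66, and 0.03 ± 0.11 without that library. In the NAc after morphine it was -0.10 ± 0.06. In the VTA after PBS the WT libraries held 3626, 3615 and 3687 and the Vdr-/- libraries 3029, 3415 and 3229, with no overlap and a log2 difference of -0.18 ± 0.05 that did not pass. After morphine the VTA difference was -0.11 ± 0.15.

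Morphine was compared with PBS within each region and genotype. In the NAc, Gabrg1, the γ1 gene, was higher after morphine in both genotypes. WT libraries held 636, 644 and 500 normalized counts of Gabrg1 after PBS and 889, 969 and 998 after morphine (log2 difference 0.70 ± 0.11). Vdr-/- libraries held 486, 767 and 634 after PBS and 869, 943 and 942 after morphine (0.57 ± 0.12). The injections did not overlap in either genotype. The WT call of Gabrg1 was lost without WT PBS mouse 1 (0.76) or 3 (0.59) and without WT morphine mouse 1.0 (0.75), 1.1 (0.69) or 1.2 (0.67). The Vdr-/- call stood in each such fit.

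Gabra3 and Gabra4 moved in opposite directions in the NAc of Vdr-/- mice. Gabra3 held 1912, 1864 and 1637 normalized counts after PBS and 2058, 2339 and 2282 after morphine (log2 difference 0.31 ± 0.07). Gabra4 held 2297, 2164 and 2434 after PBS and 2006, 1872 and 1797 after morphine (-0.28 ± 0.06). Both passed, and the Gabra3 call was lost without Vdr-/- morphine mouse 2.1 (0.27). In WT mice the Gabra3 difference was 0.45 ± 0.10 and that of Gabra4 was -0.24 ± 0.09. Neither passed with all libraries, when 128 genes did. Both passed without WT PBS mouse 2 (0.50 and -0.31), when 627 genes did. DESeq2 passed Gabra3 with that library, among 514 genes.

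The remaining members did not pass in the NAc. Gabra2 differed by 0.15 ± 0.07 in WT and 0.15 ± 0.05 in Vdr-/- mice, with no overlap of the injections in either genotype. The same lack of overlap held for Gabra3, Gabra4 and Gabrg1. The share of all genes without overlap was not counted, so nothing is read from it. Gabra5 differed by 0.04 ± 0.15 and -0.05 ± 0.09, and Gabrb1 by 0.46 ± 0.24 and -0.01 ± 0.07. Gabrb2 differed by 0.94 ± 0.64 in WT mice, which fell to 0.07 ± 0.06 without WT PBS mouse 2, and by -0.07 ± 0.09 in Vdr-/- mice. Without that library the WT difference of Gabrb1 was 0.17 ± 0.10. In all, 1 of 7 members passed in WT mice, where 0.813% of 15749 genes did, and 3 of 7 in Vdr-/- mice, where 19.1% of 15820 did. The summed medium spiny neuron markers given above were lower after morphine in both genotypes, and 3 of 10 markers passed as lower in WT and 10 of 10 in Vdr-/- mice (median log2 differences -0.63 and -0.56). Astrocyte markers passed as higher in 2 of 9 in WT and 5 of 9 in Vdr-/- mice (medians 0.27 and 0.30). Microglia markers passed as lower in 1 of 8 and 5 of 8 (medians -0.34 and -0.26). Oligodendrocyte markers passed as lower in 0 of 8 and 4 of 8, with 1 higher in Vdr-/- mice (medians -0.27 and -0.20). The part of these cell types and of exon length in the NAc morphine differences was not tested.

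In the VTA the deposited tables for morphine against PBS hold 3 libraries against 2, without WT PBS mouse 3 and without Vdr-/- PBS mouse 8. Gabra5 was the 1 member of 7 that passed in Vdr-/- mice, where 10% of 16364 genes passed. Its libraries held 564 and 515 normalized counts after PBS and 661, 911 and 893 after morphine (log2 difference 0.58 ± 0.14). The omitted Vdr-/- PBS mouse 8 held 983, above all 3 morphine libraries, and with it the difference was 0.30 ± 0.24 and did not pass. The Gabra5 call was also lost without Vdr-/- morphine mouse 2.1 (0.50) or 2.2 (0.51) and without PBS mouse 7 (0.65) or 9 (0.52).

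In WT mice 0 of 7 members passed in the VTA, where 3.65% of 16187 genes did (limma). An unadjusted p under 0.05 was reached by 3 of 7, Gabra2, Gabrb1 and Gabrg1, and by 3919 of the 16187 genes. DESeq2 passed 2 of 7, Gabra2 and Gabrg1, among 1423 genes. Gabra2 differed there by 0.49 ± 0.15, Gabrg1 by 0.47 ± 0.14, Gabrb1 by 0.42 ± 0.14 and Gabra3 by 0.22 ± 0.10. The injections did not overlap for these members. The share of all genes without overlap among 3 against 2 libraries was not counted, so nothing is read from it. The omitted WT PBS mouse 3 held 4546 counts of Gabrb1, within the morphine range of 4507 to 6175. Gabra4 held 538 and 538 normalized counts after PBS and 583, 1567 and 1069 after morphine (0.86 ± 0.36), and passed without WT morphine mouse 1.0 (1.24). The omitted WT PBS mouse 3 held 643 counts of Gabra4, within the morphine range. Without WT morphine mouse 1.1, 5 members passed, Gabra2 (0.63), Gabra5 (0.68), Gabrb1 (0.52), Gabrg1 (0.61) and Gabrb2, which was lower (-0.39). In that fit 2817 genes passed, against 591 of 16187 with mouse 1.1. With all 3 PBS libraries, when 2026 genes passed, Gabrg1 passed as well (0.53). In Vdr-/- mice 4 of 7 members and 4879 of 16364 genes had an unadjusted p under 0.05 (limma). Gabra2 differed by 0.45 ± 0.14 and Gabrb2 by -0.15 ± 0.10. Gabrb1 differed by 0.25 ± 0.10, Gabra4 by 0.23 ± 0.31, Gabra3 by 0.19 ± 0.06 and Gabrg1 by 0.05 ± 0.06. The omitted Vdr-/- PBS mouse 8 held 2592 counts of Gabra2, within the morphine range of 2307 to 3350. With it the Gabra2 difference was 0.34 and did not pass. Gabra2 and Gabrb2 passed without Vdr-/- morphine mouse 2.0 (0.59 and -0.26), when 2272 genes passed against 1639 with it. DESeq2 passed Gabra2 among 1919 genes. The dopamine neuron markers moved with the injection in WT mice, where 7 of 10 passed as lower, and 1 of 10 passed as higher in Vdr-/- mice. Oligodendrocyte markers passed as lower in 0 of 8 in WT and 7 of 8 in Vdr-/- mice, with medians of -0.80 and -0.61 (log2). Their sums were 12339 to 13415 CPM after PBS and 6313 to 10353 CPM after morphine in WT mice, and 12216 to 12619 and 8255 to 9122 CPM in Vdr-/- mice. Microglia markers passed as lower in 6 of 8 in WT and 3 of 8 in Vdr-/- mice (medians -0.75 and -0.45). The hypothalamus and mammillary marker sum in WT mice was 35.1 to 146 CPM after PBS and 220 to 1005 CPM after morphine, with 35.1 in the omitted mouse 3. Of its 5 markers tested there, 3 had differences above 0 and 0 passed (limma). In Vdr-/- mice the sums were 46.9 to 360 and 148 to 277 CPM, with 46.9 in the omitted mouse 8. There 3 of 5 markers had differences above 0 and 1 passed as higher. The part of these cell types and of exon length in the VTA values was not tested.

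**Figure D5:**
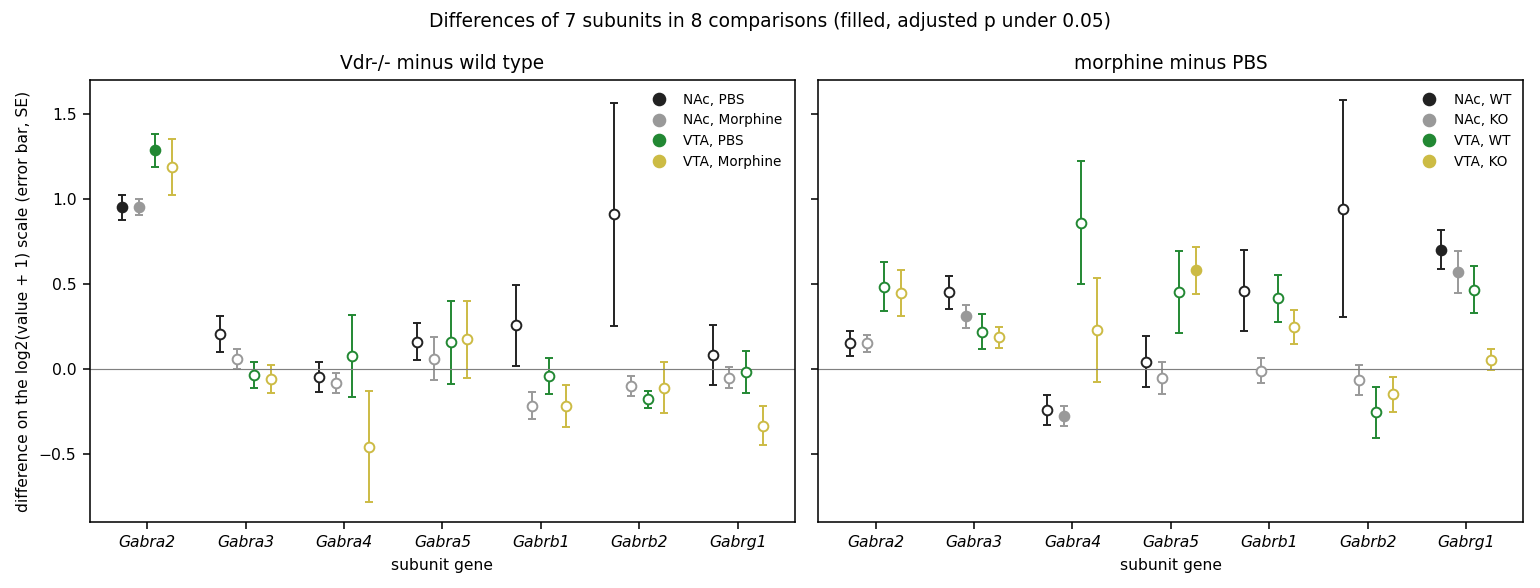
Points give the log2 difference (bar, SE) of each member for Vdr-/- minus WT (left) and morphine minus PBS (right), with filled points where the adjusted p was under 0.05. Gabra2 lies between 0.95 and 1.29 by genotype and between 0.15 and 0.49 by injection, and the long bars of Gabrb2 in the NAc come from WT PBS mouse 2.

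Whether morphine acted differently in the genotypes was asked of all 4 groups of a region in 1 fit. In the NAc 0 of 7 members and 0% of genes passed (limma), with 0 of 7 members and 938 of 16004 genes at an unadjusted p under 0.05 and 0 genes called by DESeq2 or edgeR. In the VTA 0 of 7 members and 0% of genes passed (limma), with 0 of 7 members and 1728 genes at an unadjusted p under 0.05, 38 called by DESeq2 and 0 by edgeR. The interaction of Gabra2 was 0.01 ± 0.09 (log2, SE) in the NAc and -0.11 ± 0.22 in the VTA. That of Gabrb2 in the NAc was -1.0 ± 0.71, and -0.13 ± 0.13 without WT PBS mouse 2. Whether the genotype difference itself differed between regions was asked over all 24 libraries. No member passed (limma, DESeq2 and edgeR; 1 of 7, Gabra2, had an unadjusted p under 0.05), against 0.00619% of genes (1 of 16147), and the Gabra2 difference was 0.29 lower in the NAc than in the VTA (-0.29 ± 0.12).

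The likeness of patterns was described by Pearson's r of log2 levels across the 24 libraries among 16147 genes. The libraries share region, genotype and injection, so r describes these points and has no p. The genes most like Gabra2 were Tmem181b-ps (r = 0.967), Fkbp5 (0.907), Ccdc39 (0.834), Gm26676 (0.824) and Ifrd1 (0.814), none of them on chromosome 5. Gabra4 was most like Shank3 (0.990) and Rasgrp1 (0.983). Gabrg1 was most like Peg10 (0.908) and the ε subunit gene Gabre (0.903). Gabra3 was most like Epb41l4b (0.877) and Grin3a (0.871), Gabra5 like AU022754 (0.836) and Arid3a (0.777), and Gabrb1 like Nexmif (0.879) and Dnah5 (0.875). Gabrb2 was most like Slc9a7 (0.973) and a gene listed by identifier alone (0.969). These r of Gabrb2 rest on WT PBS mouse 2. Without it they were 0.695 and 0.639 over 23 libraries, and the genes most like Gabrb2 were Stxbp6 (0.916) and Got1 (0.864). For Gabrb1 the values without it were 0.765 (Nexmif) and 0.818 (Dnah5), with Arfgef3 (0.831) most like it. The most like gene of each other member was the same without that library. Within the 7 members the highest r was 0.80, between Gabra3 and Gabrg1, and the chromosome 5 pairs with Gabra2 had r of 0.42 (Gabra4), 0.03 (Gabrb1) and -0.16 (Gabrg1). Without WT PBS mouse 2 these were 0.79, 0.43, 0.02 and -0.17, while the r of Gabrb1 with Gabrb2 went from 0.58 to -0.27.

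The receptor's other subunit genes were described from a list of 10. This list and those below were chosen with earlier results of these data known, so their calls and adjusted p-values are descriptions. Gabra6 is not among the genes of the tables used here, Gabrp, Gabrr1 and Gabrr3 were under the minimum level, and 6 were tested. By genotype, 1 of the 6 passed in the VTA after PBS, where 0.39% of all genes did. In the other 3 genotype comparisons 0 passed by limma, DESeq2 or edgeR, with 2 in the NAc after PBS, 0 in the NAc after morphine and 1 in the VTA after morphine at an unadjusted p under 0.05. The gene that passed was Gabrr2, which encodes a ρ subunit, with 62.4 normalized counts ± 3.86 (SD, n = 3) in WT and 115.6 ± 7.04 in Vdr-/- mice (log2 difference 0.88 ± 0.12, adjusted p = 0.0381, limma). The median log2 difference of the 6 in the VTA was 0.35 after PBS, beside -0.0017 over all genes tested, and -0.42 after morphine. In the NAc it was 0.11 after PBS and 0.05 after morphine. The Gabrr2 call held in 1 of 6 fits that leave out a library, the one without Vdr-/- PBS mouse 8, with differences of 0.83 to 0.93. Gabrr2 differed by 0.86 ± 0.27 in the NAc after PBS and by 0.41 ± 0.25 in the NAc after morphine. In the VTA after morphine it differed by 0.20 ± 0.20, and none of these passed.

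With morphine in the NAc, Gabrd, which encodes the δ subunit of extrasynaptic receptors, was lower in both genotypes. Gabrd held 1431, 1625 and 1374 normalized counts in WT libraries after PBS and 972, 730 and 762 after morphine (log2 difference -0.84 ± 0.12, adjusted p = 0.0377, limma). In Vdr-/- libraries it held 1247, 1154 and 1244 and then 842, 719 and 705 (-0.68 ± 0.07, adjusted p = 0.000248, limma). The WT call of Gabrd stood without WT PBS mouse 2 or morphine mouse 1.0 and was lost without any 1 of the other 4, with values of -0.97 to -0.76 over all 6. Gabre and Gabrq, the ε and θ subunit genes, lie beside Gabra3 on chromosome X. In Vdr-/- mice Gabre was higher after morphine (2.46 ± 0.44, adjusted p = 0.0034, limma), as was Gabrq (2.26 ± 0.54, adjusted p = 0.0146, limma). Gabrq lost the call under DESeq2 and without Vdr-/- morphine mouse 2.1 (2.06) or 2.2 (2.14). In WT mice Gabre (1.94 ± 0.66) and Gabrq (1.95 ± 0.55) did not pass. In all, 1 of 6 other subunits passed in WT and 3 of 6 in Vdr-/- mice, beside 0.813% and 19.1% of all genes. Gabrd, Gabre and Gabrq moved beside marker sums of other cells. Of the medium spiny neuron markers, 3 of 10 in WT and 10 of 10 in Vdr-/- mice passed as lower. The summed hypothalamus and mammillary markers were 0.12 to 0.97 CPM after PBS and 0.64 to 5.42 CPM after morphine in WT mice, and 0.48 to 0.69 and 1.39 to 3.47 CPM in Vdr-/- mice. Of these 7 markers only 1 in WT and 0 in Vdr-/- mice reached the minimum level for testing, and 0 passed. Choroid plexus markers summed to 1.20 to 1.43 and 2.56 to 5.30 CPM in WT and to 1.27 to 1.38 and 2.78 to 4.61 CPM in Vdr-/- mice. What part these cells have in the values was not tested.

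In the VTA, 1 of 6 other subunits passed with morphine in WT mice, beside 3.65% of all genes. It was Gabrg3, the γ3 gene (log2 difference 0.81 ± 0.15, adjusted p = 0.0417, limma). In Vdr-/- mice 2 of 6 passed, beside 10% of all genes, Gabre (0.64 ± 0.15) and Gabrq (0.57 ± 0.12). With all 3 PBS libraries Gabre (1.20) and Gabrq (0.96) no longer passed. Single libraries decided these calls. Gabrg3 kept its call only without WT morphine mouse 1.1 (0.95), Gabre only without Vdr-/- morphine mouse 2.2 (0.80), and Gabrq only without morphine mouse 2.0 (0.47) or 2.2 (0.68). Summed hypothalamus and mammillary markers ranged from 35.1 to 1005 CPM over VTA libraries, and their part in these values was not tested. By region, all 6 other subunits passed, 2 higher in the NAc and 4 higher in the VTA, with Gabrd at 4.51 ± 0.48 and Gabrq at -2.41 ± 0.30.

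Of 20 genes for assembly, trafficking and anchoring of the receptor, such as gephyrin (Gphn) at inhibitory synapses, 19 were tested and 0 passed by genotype in any of the 4 comparisons (limma, DESeq2 and edgeR). An unadjusted p under 0.05 was reached by 0 in the NAc after PBS, 3 in the NAc after morphine, 2 in the VTA after PBS and 1 in the VTA after morphine. Their median log2 difference by genotype lay between -0.04 and 0.0054, beside -0.0017 to 0.01 over all genes tested. With morphine 0 passed in the NAc of WT mice (limma), where 4 had an unadjusted p under 0.05, DESeq2 passed 1 and edgeR 0. In the NAc of Vdr-/- mice 4 of 19 passed, beside 19.1% of all genes. These were Hap1 (0.49 ± 0.10), a motor adaptor, and Iqsec3 (0.42 ± 0.09), a gephyrin partner, both higher, and Plcl2 (-0.30 ± 0.05) and Lhfpl4 (-0.20 ± 0.05), both lower. In the VTA 3 of 19 passed in WT mice, beside 3.65% of all genes, Shisa7 (0.64 ± 0.11), Plcl1 (-0.40 ± 0.08) and Trak2 (-0.64 ± 0.11). In Vdr-/- VTA libraries 4 of 19 passed, beside 10% of all genes, Shisa7 (0.44 ± 0.10), Hap1 (0.41 ± 0.08), Slc12a2 (-0.28 ± 0.07) and Trak2 (-0.25 ± 0.05). Shisa7 is an auxiliary subunit, Trak2 a transport adaptor and Slc12a2 a chloride importer. Of the 4 NAc calls, 3 stood in every fit without 1 library, and Lhfpl4 was lost without Vdr-/- morphine mouse 2.1 or PBS mouse 9. Each of the 7 VTA calls held in only 1 or 2 of 5 such fits.

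Of 10 genes for GABA synthesis, transport, breakdown and the GABA-B receptor, all were tested and 0 passed by genotype in any comparison (limma, DESeq2 and edgeR). An unadjusted p under 0.05 was reached by 0, 1, 2 and 3 genes in the same order. Their median log2 difference lay between -0.08 and 0.02 by genotype. With morphine 0 passed in WT mice in either region (limma). An unadjusted p under 0.05 was reached there by 2 in the NAc, where DESeq2 and edgeR passed 0, and by 3 in the VTA, where DESeq2 passed 1 and edgeR 0. In the NAc of Vdr-/- mice 3 of 10 passed, beside 19.1% of all genes. All 3 were higher, Slc6a13 (1.02 ± 0.15) and Slc6a11 (0.67 ± 0.13), which are GABA transporters, and Gad2 (0.28 ± 0.08), which makes GABA. In the VTA of Vdr-/- mice 2 of 10 passed, beside 10% of all genes. Both were lower, the vesicular transporter Slc32a1 (-0.56 ± 0.11) and the GABA-degrading enzyme Abat (-0.34 ± 0.07). Slc6a11 and Slc6a13 stood in every fit without 1 library, whereas Gad2 stood in 1 of 6, Slc32a1 in 2 of 5 and Abat in 1 of 5. By region, 17 of the 19 trafficking genes (8 higher in the NAc, 9 in the VTA) and 9 of these 10 (4 and 5) passed, beside the 73% of all genes given above.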

How the data were processed

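The mRNA of 24 libraries was sequenced from a stranded kit. Per the labels and methods, the authors processed reads with CASAVA 1.8, Trimmomatic 0.36 and STAR 2.4.2a (gene counts) and compared groups with DESeq2. The deposited values are a signal, reads per gene divided by a DESeq2 size factor, in 8 tables, beside the authors' own fold changes and p-values, which were not used. Multiplication by the size factor gave whole reads for 100% of values (tolerance 0.01).

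The 7 members and all gene lists were chosen with earlier results of these data known. Each contrast was fitted over its own table with limma 3.58.1 (R 4.3.3, lmFit and eBayes with trend) on log2(value + 1) for genes with a mean of at least 10, and called at a Benjamini-Hochberg adjusted p under 0.05. Fold changes on this scale understate those of low genes. Interactions and regions used 1 size factor scale over the 24 libraries, as do the levels printed. TPM used exon lengths of GENCODE M21, which held 30204 of 30270 gene identifiers (99.8%). Alternatives were a pseudocount of 5, a mean of at least 1, DESeq2 1.42.0 and edgeR 4.0.16 (quasi-likelihood) on the recovered reads, all 3 PBS libraries in the VTA, the mouse number as a block, and leaving out each library. The fits were tested on simulated data. Genes named were the members, the other subunits that passed, the genes of both lists that passed with morphine, the 5 genes most like Gabra2 and 2 for each other member. Some subunit genes are not reported here. Slc10a4, Stxbp6, Got1 and Arfgef3 were named, and levels and likenesses without WT PBS mouse 2 added, after values were seen. The numbers in the labels were taken as mouse numbers, which the labels do not state. If each library of a region came from its own mouse, p-values within a region measure the spread between these mice. The main region fits treated libraries of the same number as independent. Window sequences came from RefSeq (GRCm38.p6).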

Additional observations from a re-analysis of the deposited data

Results flagged for a closer look

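Some genes had morphine differences of opposite sign in the NAc and the VTA, with no overlap between the injections in either region. The difference between regions was not tested. The share of all genes that meet this rule was not counted, so nothing is read from the number of such genes. In WT mice these were the α4 gene Gabra4 (log2 difference -0.24 in the NAc and 0.86 in the VTA) and the GABA transporter gene Slc6a11 (0.61 and -0.32). In Vdr-/- mice they were Slc6a11 (0.67 and -0.39) and Plcl2, a receptor trafficking gene (-0.30 and 0.16). Of these 8 differences only the NAc differences of Slc6a11 and Plcl2 in Vdr-/- mice passed the test by limma. The VTA values rest on 2 PBS libraries, and for Gabra4 the omitted WT PBS mouse 3 lay within the morphine range.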

How the results depend on the processing

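Counts of genes called depended on the tool and on single libraries. DESeq2 called 64 genes by genotype in the NAc after PBS, 52 in the NAc after morphine, 274 in the VTA after PBS and 94 in the VTA after morphine, against 11, 30, 64 and 10 with limma. With morphine it called 514 in the NAc and 1423 in the VTA of WT mice, against 128 and 591, and 38 against 0 for genotype by injection in the VTA. With all 3 PBS libraries 2026 genes passed in the VTA of WT mice. The 1 gene called for region by genotype fell to 0 with a pseudocount of 5, with a mean of at least 1, with DESeq2 and with the replicate block. Leaving out 1 library gave 2 to 28, 14 to 47, 13 to 370 and 5 to 49 genes by genotype in the order above. With morphine it gave 0 to 627 and 1566 to 3133 in the NAc and 0 to 2817 and 0 to 2272 in the VTA of WT and Vdr-/- mice, 0 to 1 and 0 to 46 for genotype by injection in the NAc and the VTA, 11571 to 12197 by region and 0 to 5 for region by genotype. Where 1 PBS library remained, it was assumed to vary like the others. The Gabra2 difference from its neighbours ranged over 0.75 to 1.00, 1.04 to 1.10, 1.14 to 1.46 and 1.36 to 1.72.

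No member past the threshold changed sign under any alternative. Set against the SD of log2 values within groups (root mean square over the groups compared), 5 of the members' differences moved by more than it. They were Gabra5 (0.30) and Gabrg1 (0.21) with morphine in the VTA of Vdr-/- mice with all 3 PBS libraries, the NAc interactions of Gabrb1 (-0.18) and Gabrb2 (-0.13) without WT PBS mouse 2, and the VTA interaction of Gabra4 (-0.93) without WT morphine mouse 1.0. The NAc SD of Gabrb2 includes WT PBS mouse 2, so its fall from 0.91 to 0.03 without that library is not among them. The numbers taken as mouse numbers are shared by the NAc and VTA libraries. Deviations of same-numbered libraries correlated at -0.07 to 0.17, not over 0.1 in each pair, so the main region fits did not take the numbers as pairing. In WT PBS mice 1, 2 and 3 this r was 0.126, 0.089 and 0.168, above the highest with another number (-0.028, -0.031 and -0.088). In WT morphine mice 1.0 and 1.1 it was -0.052 and -0.067, below that highest r (0.054 and 0.135). Whether the numbers mark the same mice was thus not settled. With the mouse as a replicate block 11766 genes passed by region, against 11791, and the calls of the members were unchanged in the region fits. The causes of these shifts were not tested.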
